A study of Mus musculus with 2 samples.

Results

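Hepatocytes that border the central vein of the liver lobule carry a set of genes that depend on Wnt signalling, and 10 of these genes were followed here in the liver of 1 mouse: Glul, Oat, Rhbg, Slc1a2, Slc1a4, Lgr5, Rnf43, Znrf3, Axin2 and Tbx3. They were chosen by name and found through their Ensembl gene identifiers, so they are 10 of the 43346 Ensembl genes in the deposited gene tables. No measured level was part of that rule.

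The liver came from a female C57BL/6J mouse, adult, 10 weeks old, with no transgene, treatment or diet named in the labels. Polyadenylated RNA of this animal was sequenced as 2 libraries, which the labels number as technical replicates 1 and 2 of biological replicate 1. The second was made in May 2015 and the first has no date. Both belong to 1 group, so no condition can be compared, no p-value is given, and each SD below (n = 2) is the spread between libraries of 1 liver.

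Wnt ligands and R-spondins from endothelial cells of the central vein act on neighbouring hepatocytes. There they keep β-catenin from being degraded, and β-catenin enters the nucleus and turns on target genes together with TCF factors. In liver this pathway sets the pericentral programme, whose best known part is the capture of ammonia as glutamine. Several targets are themselves parts of the pathway: Axin2, Rnf43 and Znrf3 dampen it and Lgr5 strengthens it.

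The libraries differed in more than depth. Expected counts, which are estimated fragments per gene, summed to 23309905 in library 1 and 19525500 in library 2. Mitochondrial genes took 40.7% of TPM (a length-normalised share of all transcripts) in library 1 and 14.9% in library 2, while nuclear protein-coding genes took 37.6% and 73.7%. A TPM therefore stands for a different share of nuclear mRNA in each library, and the median log2 TPM ratio of library 2 over library 1 was 0.84 over 12728 genes. The 6 hepatocyte markers, among them albumin (Alb), were above 1 TPM in both libraries. Kidney markers summed to 0.07 TPM in library 1 and 0 in library 2.

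The 10 genes summed to 655.94 TPM in library 1 and 1644.6 TPM in library 2 (mean 1150.27 ± 699.09 TPM). As a share of nuclear protein-coding TPM the sums were closer, 0.175% and 0.223%. The enzymes Oat and Glul held nearly all of it, 93.6% in library 1 and 93.5% in library 2, and the other 8 genes together reached 41.99 and 107.65 TPM. At a detection level of 1 TPM, 8 of 10 genes were detected in library 1 and 10 of 10 in library 2. Rhbg and Slc1a4 were the ones below it in library 1. In a bulk tissue sample such as this one, fewer pericentral cells and less RNA per cell cannot be told apart.

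**Figure D1:**
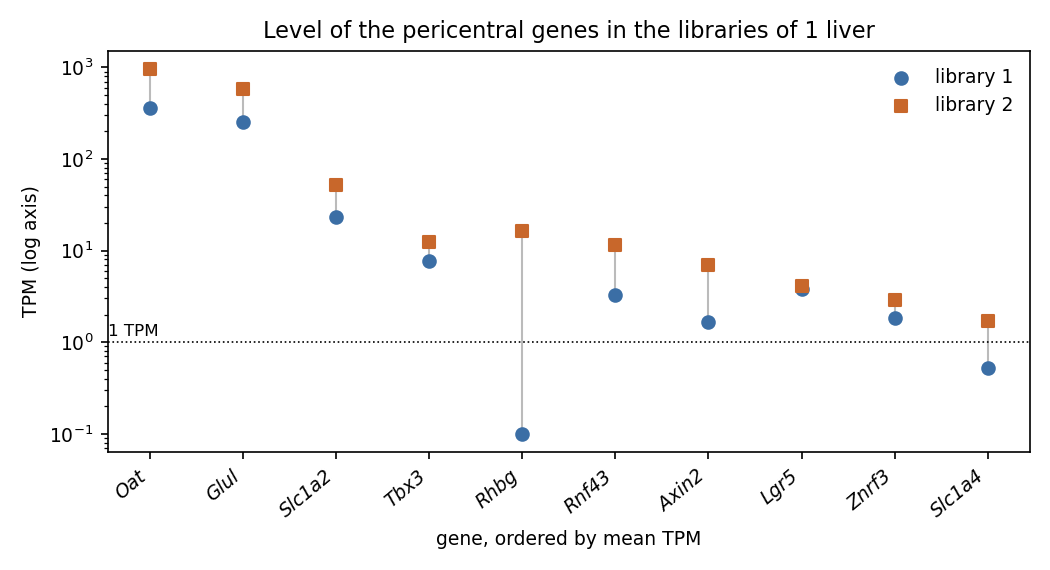
TPM of each gene (log axis) in library 1 (circles) and library 2 (squares), ordered by mean TPM, with a dotted line at 1 TPM. Oat and Glul stand above 250 TPM in both libraries, and Rhbg has the widest gap, 0.10 against 16.30 TPM.

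By mean TPM the order was Oat, Glul, Slc1a2, Tbx3, Rhbg, Rnf43, Axin2, Lgr5, Znrf3 and Slc1a4. Glul stood above Slc1a2, Slc1a2 above Tbx3, Lgr5 above Znrf3 and Znrf3 above Slc1a4 with no overlap of the library values. The other neighbours overlapped: Oat with Glul, Tbx3 with Rhbg, Rhbg with Rnf43, Rnf43 with Axin2, and Axin2 with Lgr5. Within each library, however, Oat was above Glul and Rnf43 above Axin2.

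Oat (ENSMUSG00000030934.8, chromosome 7, 132557478 to 132576398, minus strand, mm10) codes for ornithine aminotransferase, a mitochondrial enzyme that moves an amino group from ornithine and yields glutamate. It had 16182 counts and 360.02 TPM in library 1, and 29199 counts and 961.81 TPM in library 2. These levels placed it 142nd and 99th among 21461 nuclear protein-coding genes. Oat was thus the most abundant of the 10 in both libraries.

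Glul (ENSMUSG00000026473.11, chromosome 1, 153899944 to 153909723, plus strand) codes for glutamine synthetase, which joins ammonia to glutamate and is the classical marker of the hepatocytes next to the central vein. It had 14798 counts and 253.93 TPM in library 1, and 22904 counts and 575.14 TPM in library 2, ranking 212th and 177th among nuclear protein-coding genes. The ratio of Oat to Glul TPM was 1.42 in library 1 and 1.67 in library 2. Gls2, the liver glutaminase that runs the opposite reaction in periportal hepatocytes, was at 65.72 and 314.47 TPM. The ratio of Glul to Gls2 was 3.86 and 1.83, so Glul was the higher in both libraries but by unequal factors. Cyp2e1, a cytochrome P450 of a broader pericentral zone, exceeded Glul 14.7-fold and 8.94-fold.

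Rhbg (ENSMUSG00000104445.1, chromosome 3, 88242874 to 88254709, minus strand) codes for an ammonium transporter of the plasma membrane. Its expected count was 3.89 in library 1 and 440 in library 2, and its level 0.10 and 16.30 TPM. No other gene of the 10 differed as much between the libraries. The other members of its family, Rhag and Rhcg, had 0 counts in both libraries, which allows up to 3 counts in each. A gene named Gm38392 (ENSMUSG00000103766.1, chromosome 3, 88243380 to 88287210), looked up after the values were seen, overlaps 9 of the 10 Rhbg exons and can share its reads. Gm38392 held 8.11 expected counts in library 1 and 0.00 in library 2. Its posterior mean count was 7.79 in library 1 and 17.83 in library 2, beside 4.21 and 422.17 for Rhbg. The posterior SD of the Rhbg count, the authors' estimate of how uncertain that division is, was 1.70 in library 1 and 15.39 in library 2.

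Slc1a2 (ENSMUSG00000005089.11, chromosome 2, 102658659 to 102790784, plus strand) codes for a high-affinity glutamate transporter best known from astrocytes. It had 4443 counts and 23.02 TPM in library 1, and 3332 counts and 51.53 TPM in library 2, so the count was lower and the TPM higher in library 2. The deposited gene length behind the TPM, an average over its transcripts, was 8651.37 bases in library 1 and 4378.50 bases in library 2. Astrocyte and brain markers were low: the 4 genes summed to 0.99 and 1.22 TPM, with Gfap at 0.09 and 0.11 TPM, Snap25 at 0.00 and 0.10 TPM, and Aqp4, at 0.83 and 0.82 TPM, making up most of it. Slc1a2 was 44.3-fold above Slc1a4 in library 1 and 30.0-fold in library 2 on the TPM scale.

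Slc1a4 (ENSMUSG00000020142.8, chromosome 11, 20302180 to 20332713, minus strand) codes for a neutral amino acid transporter of the same family. With 44 and 99 counts, and 0.52 and 1.72 TPM, it had the lowest mean of the 10 genes. Its relative Slc1a5, a glutamine transporter, was at 0.34 and 2.25 TPM. The glutamate transporters Slc1a1 (0.13 and 0.04 TPM) and Slc1a3 (0.07 and 0.19 TPM) lay lower, and Slc1a7 had 0 and 3 counts. Slc1a2 was the one gene of this family above 3 TPM in either library, with Slc1a6 at 0 in both.

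Among the feedback genes, Rnf43 (ENSMUSG00000034177.11, chromosome 11, 87662722 to 87735539, plus strand) codes for a membrane ubiquitin ligase that removes Frizzled receptors from the cell surface. It had 230 counts and 3.29 TPM in library 1, and 645 counts and 11.63 TPM in library 2. Znrf3 (ENSMUSG00000041961.10, chromosome 11, 5276324 to 5444847, minus strand), the related ligase with the same role, had 240 and 250 counts, and 1.82 and 2.86 TPM. By TPM Rnf43 was above Znrf3 1.81-fold in library 1 and 4.07-fold in library 2, while its count in library 1 was slightly lower. In library 1 a non-coding Rnf43 transcript held 2.51 TPM and a coding one 0.78 TPM. The coding Znrf3 transcripts were at 1.36 and 0.46 TPM there, so on coding transcripts alone Znrf3 was the higher in library 1.

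Axin2 (ENSMUSG00000000142.11, chromosome 11, 108920349 to 108950783, plus strand) codes for a scaffold of the complex that degrades β-catenin. It had 85 counts and 1.67 TPM in library 1, and 305 counts and 7.02 TPM in library 2. Axin1, its constitutive counterpart, was at 4.66 and 8.59 TPM. The ratio of Axin2 to Axin1 TPM was 0.358 in library 1 and 0.817 in library 2, below 1 in both. By counts, which are not divided by length, Axin1 had 83 in library 1 and 431 in library 2. On that scale Axin2 was about level with Axin1 in library 1 and below it in library 2.

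Lgr5 (ENSMUSG00000020140.11, chromosome 10, 115450311 to 115587780, minus strand) codes for a receptor of R-spondins. It had 380 counts and 3.83 TPM in library 1, and 261 counts and 4.12 TPM in library 2, the closest pair of TPM values among the 10 genes. Lgr4, which binds the same ligands, was 4.31-fold above Lgr5 in library 1 and 3.45-fold in library 2, and Lgr6 had 2 counts and 1 count. Of the intestinal stem cell markers, which share Lgr5 expression in gut, Olfm4 was at 0.21 and 0.09 TPM, Ascl2 at 0, and Smoc2 at 1.11 and 2.70 TPM.

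Tbx3 (ENSMUSG00000018604.14, chromosome 5, 119670669 to 119684724, plus strand) codes for a T-box transcription factor, the one DNA-binding protein of the 10. It had 795 counts and 7.74 TPM in library 1, and 738 counts and 12.47 TPM in library 2. Tbx2, its closest relative, was at 0.08 and 0.87 TPM, Tbx4 had 1 count and 0 counts, and Tbx5 had 0 in both. Tbx3 was the highest of these 4 T-box genes in each library.

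The transcript tables list 53 annotated transcripts for the 10 genes, of which 23 were above 0 in library 1 and 32 in library 2. Oat and Rhbg have 1 transcript each. Of the other 8 genes, 4 had the same leading transcript in both libraries by isoform share, the percent of a gene's TPM that a transcript holds. These were Glul (97.69% and 98.95%), Lgr5 (92.03% and 84.41%), Znrf3 (74.51% and 66.91%) and Tbx3 (80.68% and 49.27%). Slc1a2, Rnf43, Axin2 and Slc1a4 had different leading transcripts in the libraries.

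**Figure D2:**
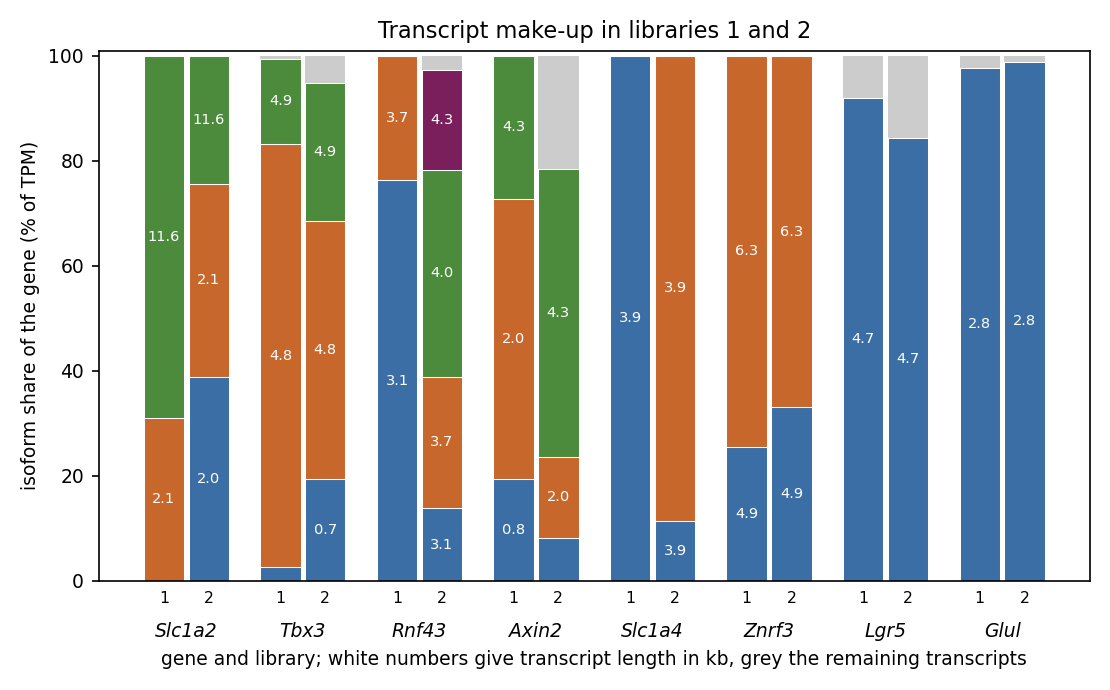
Share of each gene's TPM held by its transcripts in libraries 1 and 2, for the 8 genes with more than 1 annotated transcript. Colours mark transcripts that reach 10% in a library, with length in kb in white, and grey marks the remaining ones. The long Slc1a2 transcript holds 68.91% of the gene in library 1 and 24.48% in library 2.

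Slc1a2 is annotated with alternative first exons, whose coding bases differ after the ATG that opens each, and with alternative coding ends. Transcript ENSMUST00000080210.5 (11595 bases, 45.3% GC) starts in an upstream first exon (chromosome 2, 102658659 to 102659301) and ends in a last exon of 9322 bases (102781463 to 102790784). ENSMUST00000005220.6 (2127 bases) and ENSMUST00000111212.3 (1957 bases) start in a downstream first exon (102706438 to 102706483). The coding bases that tell these forms apart follow, with those particular to a form in capitals and the coding bases next to them in lower case, plus strand, mm10.

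Slc1a2 upstream start, chr2:102659285-102659301 (capitals): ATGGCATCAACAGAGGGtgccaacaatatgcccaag
Slc1a2 downstream start, chr2:102706476-102706483 (capitals): ATGGTCAGtgccaacaatatgcccaag
Slc1a2 read-through end, chr2:102777656-102777694 (capitals): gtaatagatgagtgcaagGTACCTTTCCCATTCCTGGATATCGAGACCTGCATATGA
Slc1a2 spliced end, chr2:102781463-102781534 (capitals): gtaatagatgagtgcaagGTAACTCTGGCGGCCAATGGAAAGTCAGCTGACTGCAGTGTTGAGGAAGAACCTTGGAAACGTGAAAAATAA

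The upstream start with the spliced end, ENSMUST00000080210.5, was at 15.86 TPM in library 1 and 12.61 TPM in library 2. The downstream start with the read-through end, ENSMUST00000005220.6, was at 7.16 and 18.86 TPM, and the downstream start with the spliced end, ENSMUST00000111212.3, at 0.00 and 20.06 TPM. The downstream start thus held 31.1% of the TPM of the coding transcripts in library 1 and 75.5% in library 2. By posterior mean counts, which are not divided by length, the downstream start held 6.86% and 33.0%, also more in library 2 but the smaller part in both libraries. The posterior SD was 17.45 counts on 302.06 for ENSMUST00000005220.6 in library 1, and 41.66 counts on 545.53 for ENSMUST00000111212.3 in library 2, which is small beside the counts, given this annotation. The spliced end of ENSMUST00000111212.3 lies within the long last exon, and no annotated transcript joins the downstream start to the whole of that exon. GC content was 45.3% for the long transcript and 49.6% and 50.4% for the short ones, and its part in the difference was not tested.

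The 250 bases before the downstream start of Slc1a2 (chr2:102706188-102706437, plus strand, RefSeq promoter table, GRCm38.p6) are shown because this start holds most of the gene's TPM, though not of its counts, in library 2. Capitals mark the letters CTTTGA, the core of the sequence that TCF factors recognise, on this strand, and TCAAAG, the same letters read from the other strand.

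Slc1a2 downstream promoter: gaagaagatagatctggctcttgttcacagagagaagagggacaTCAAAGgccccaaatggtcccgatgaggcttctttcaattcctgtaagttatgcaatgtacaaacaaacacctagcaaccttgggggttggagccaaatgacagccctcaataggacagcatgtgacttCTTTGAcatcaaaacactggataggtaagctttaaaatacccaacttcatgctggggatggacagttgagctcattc

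The match on the same strand lies 77 to 72 bases before the start and the match on the opposite strand 206 to 201 bases before it. RefSeq gave 7 promoters for 6 of the genes (Glul, Slc1a2, Oat, Slc1a4, Axin2 and a pair for Rnf43), and Slc1a2 held the only matches to CTTTGA. Over all 32851 promoters of this length, 13.8% held CTTTGA on either strand and 0.691% on both. CTTTGT, a common variant, was in 0 of 7 and in 16.5% of all, and CTTTGATC, a longer form that contains CTTTGA, in 0 of 7 and 0.801% of all. A match describes these letters and is not a measured binding site, and 1 in 7 is close to the share over all promoters.

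Tbx3 has coding transcripts with and without exon 2a, a stretch of 60 bases that adds codons inside the DNA-binding T-box. The exon is shown in capitals between the last and first 18 bases of its neighbours, plus strand, mm10.

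Tbx3 exon 2a, chr5:119675243-119675302 (capitals): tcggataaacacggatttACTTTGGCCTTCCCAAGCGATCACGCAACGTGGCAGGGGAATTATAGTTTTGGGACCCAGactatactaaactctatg

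The transcript with exon 2a, ENSMUST00000018748.8, was at 1.25 TPM in library 1 and 3.28 TPM in library 2. The leading transcript without it, ENSMUST00000121021.3, was at 6.25 and 6.14 TPM. Among coding transcripts the form with exon 2a held 16.6% of TPM in library 1 and 32.6% in library 2, and 18.6% and 33.2% of posterior mean counts. Its posterior mean counts were 147.31 with a posterior SD of 40.66 in library 1 and 238.17 with 59.79 in library 2. The form without exon 2a was the more abundant in both libraries. A retained-intron transcript of 725 bases, ENSMUST00000145647.1, made up 2.55% and 19.35% of Tbx3 TPM but 0.31% and 2.71% of its counts.

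For Rnf43 the leading entry in library 1 was a non-coding transcript with a retained intron, ENSMUST00000134684.3, with 76.31% of TPM in library 1 and 13.80% in library 2. Its level was 2.51 and 1.61 TPM, so on that scale its level differed less than its share. ENSMUST00000040089.4 was at 0.78 and 2.92 TPM, ENSMUST00000092800.7 at 0.00 and 4.58 TPM and ENSMUST00000165679.3 at 0.00 and 2.22 TPM. The posterior SDs of these coding transcripts in library 2 were 64.32, 85.98 and 45.29 counts, so the split among them was loose. The retained-intron transcript has 48.5% GC and the coding ones have 56.1% to 56.5%, and the part of GC content in this shift was not tested.

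For Axin2 the full coding transcript, ENSMUST00000052915.9, held 27.18% of TPM in library 1 and 54.87% in library 2. A processed transcript of 2045 bases, ENSMUST00000139682.1, held 53.46% and 15.46%. On the TPM scale the processed transcript was at 0.89 and 1.09 and the full coding transcript at 0.45 and 3.85. For Slc1a4, ENSMUST00000004634.6 held 100% in library 1 and ENSMUST00000109594.3 held 88.55% in library 2. Posterior mean counts of this pair were 25.10 and 18.90 with an SD of 13.05 in library 1, and 32.69 and 66.31 with an SD of 23.09 in library 2, so the Slc1a4 split was not resolved in either library.

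Between the libraries, counts of the 10 genes were compared as a log2 fold of library 2 over library 1, scaled by TMM (a trimmed mean of gene-wise ratios), with an exact binomial 95% interval that covers counting error only. A gene is called here when its log2 fold is 1 or more in either direction, which is a difference of 2-fold. Rhbg, Rnf43 and Axin2 were called higher in library 2, none was called lower, and 7 were not called. Over 12728 genes with 20 or more counts in the libraries together, 33.0% were called higher, 24.0% lower and 57.0% either way, so 3 of 10 higher is near the background.

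Rhbg had a log2 fold of 6.31 (interval 5.09 to 8.34), and 4.82 (4.05 to 5.84) when the counts of Gm38392 were added, an alternative chosen after the data were seen. Axin2 had 1.52 (1.17 to 1.88) and Rnf43 1.16 (0.95 to 1.39), the latter with an interval that reaches below the threshold. Slc1a4 followed at 0.84 (0.32 to 1.39), Oat at 0.53 (0.50 to 0.56) and Glul at 0.31 (0.28 to 0.34). Lgr5, at -0.86 (-1.10 to -0.63), and Slc1a2, at -0.74 (-0.80 to -0.67), were lower in library 2, as were Tbx3, at -0.43, and Znrf3, at -0.26. The median was 0.42 for the 10 genes and 0.04 for all tested genes, and the median size 0.79 against 1.15.

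Scaling by total count moved every log2 fold up by about 0.58 and turned Tbx3 (0.15) and Znrf3 (0.31) positive. It called 5 of the 10 higher, adding Oat (1.11) and Slc1a4 (1.41), beside 42.2% of all genes higher, 7.73% lower and 49.9% either way. Lgr5 (-0.29) and Slc1a2 (-0.16) were the lower ones on that scale. On the TPM scale as deposited all 10 genes were higher in library 2, Slc1a2 included at a log2 ratio of 1.16, beside the median of 0.84 for all genes. With a pseudocount of 0.1, 7 of the 10 were called higher on that scale beside 46.3% of all genes, and with a pseudocount of 1, 6 beside 37.6%. When TPM was rescaled to nuclear protein-coding genes, whose median log2 ratio was -0.04, Tbx3 (-0.28), Lgr5 (-0.86) and Znrf3 (-0.31) were lower in library 2 and Slc1a2 was at 0.19. Rhbg and Axin2 were called higher on this scale, beside 31.0% of 11980 genes, and Rnf43, at 0.84, was not.

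**Figure D3:**
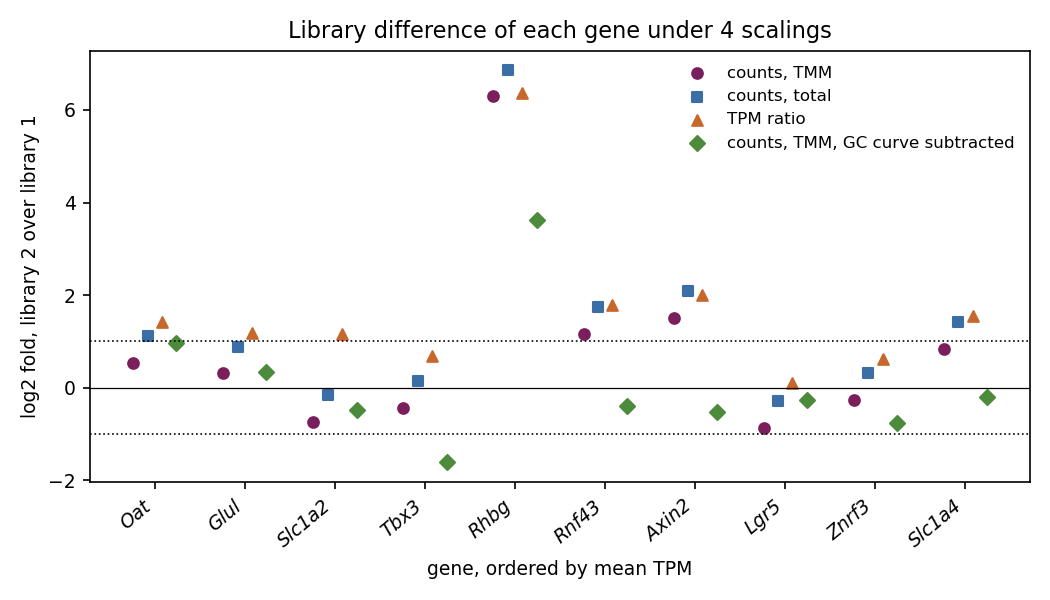
Log2 fold of library 2 over library 1 for each gene under TMM-scaled counts, total-count scaling, the TPM ratio with a pseudocount of 0.1, and TMM after subtraction of the GC curve, with dotted lines at a size of 1. Rhbg is above 3 under all 4, while Rnf43 and Axin2 are above 1 under the first 3 and below 0 after the GC curve.

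GC content moved with the library difference. The transcripts of the 10 genes ranged from 46.5% GC (Lgr5) to 56.9% (Rhbg), with a median of 52.0% against 49.8% for all tested genes, and the 3 called genes were the 3 richest in GC: Rhbg, Axin2 at 55.3% and Rnf43 at 54.2%. After a smooth curve of log2 fold on GC content was subtracted, Rhbg was at 3.62 and Oat at 0.97, and Glul at 0.35. Axin2 was then at -0.52 and Rnf43 at -0.39, both of the opposite sign. Tbx3, with 53.3% GC, was at -1.61 and passed the threshold on the low side. Rhbg alone was called higher and Tbx3 alone lower after this step, beside 8.59% and 8.08% of 12055 genes, or 16.7% either way. With GC content taken as the plain mean of a gene's transcripts, chosen after the data were seen, Oat and Rhbg were called higher, beside 11.5% of genes, and Slc1a2, Tbx3, Axin2 and Znrf3 lower, beside 11.1%.

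**Figure D4:**
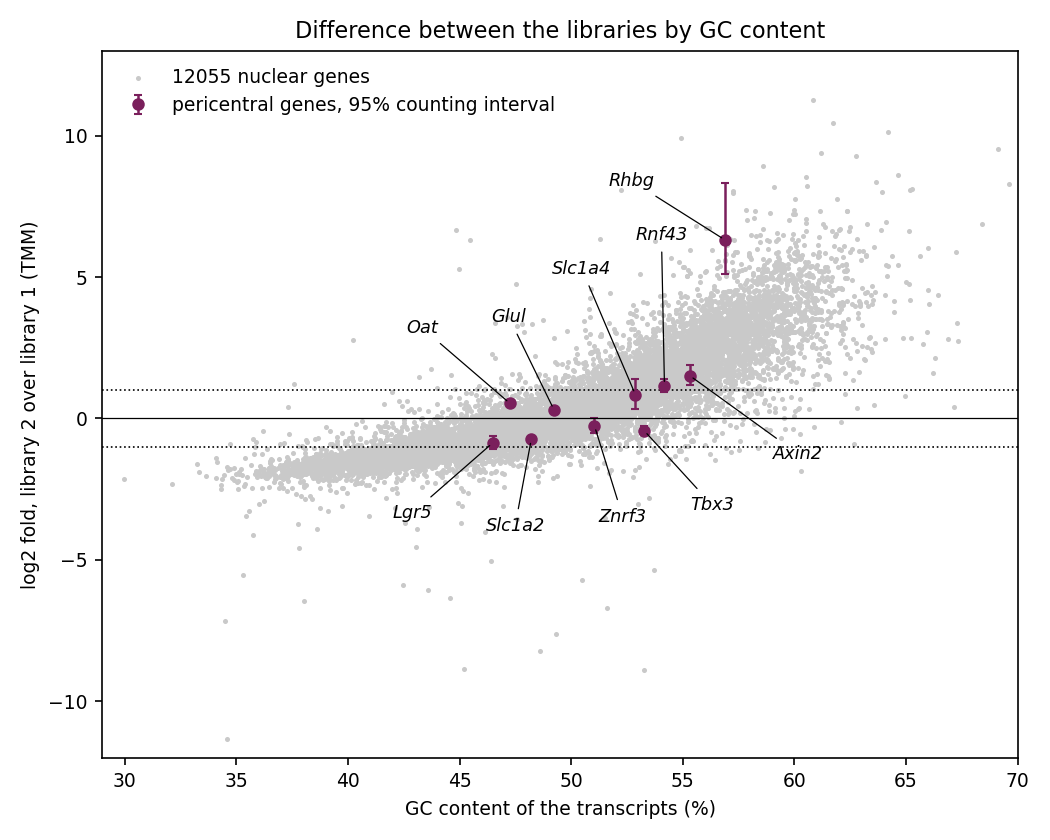
Log2 fold of library 2 over library 1 (TMM) against GC content of the transcripts for 12055 nuclear genes (grey) and the 10 pericentral genes with 95% counting intervals. The grey cloud rises with GC content, Rhbg lies above it at 6.31, and Tbx3 lies at its lower side at -0.43.

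Position set some of the genes together as well. Rnf43, Znrf3, Axin2 and Slc1a4 all lie on chromosome 11, in separate regions, and the other 6 lie on chromosomes 1, 2, 3, 5, 7 and 10. The 4 genes on chromosome 11 were all below 12 TPM in both libraries, as was Lgr5 on chromosome 10. That level is used only here and separates little. Rhbg (0.10 TPM) and Tbx3 (7.74 TPM) were also below it in library 1. In library 2 Tbx3, at 12.47 TPM, was close to Rnf43, at 11.63 TPM.

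The rest of the Wnt pathway was read from 6 lists by role, 74 genes in all. Of these, 21 were at 1 TPM or above in both libraries and 14 were at 0 in both. Of 43 with enough counts, 16 were called higher in library 2, 8 lower and 19 neither, with a median log2 fold of 0.16, beside 33.0% and 24.0% of all genes. By total count 21 were called higher and 0 lower, beside 42.2% and 7.73% of all genes. After the GC curve 4 of 38 were higher and 10 lower, beside 8.59% and 8.08%.

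Among 23 ligands and R-spondins, 1 was at 1 TPM or above in both libraries: Rspo3, the R-spondin that central vein endothelium is known for, with 235 and 128 counts, and 4.66 and 3.76 TPM. Its log2 fold was -1.20, and no GC value was at hand for it. Wnt2, an endothelial ligand, was at 0.57 and 2.50 TPM, and Wnt9b, the other one known from the central vein, at 0.07 and 0.36 TPM on 7 and 24 counts. Wnt5b, usually assigned to signalling without β-catenin, was at 0.25 and 2.86 TPM. Of the secretion genes, Wls, the carrier that takes Wnt proteins to the cell surface, was at 2.66 and 2.52 TPM, and Porcn, the enzyme that attaches their lipid, at 0.45 and 3.16 TPM. Transcripts of the ligands were thus scarce beside those of their receptors: the ligand list summed to 6.45 and 11.61 TPM and the receptor list to 47.15 and 74.02 TPM.

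Of 14 receptor genes, 6 were at 1 TPM or above in both libraries. Lgr4 led library 1 at 16.51 TPM, with 14.21 TPM in library 2, followed by the co-receptor Lrp6 at 10.09 and 10.61 TPM. The related co-receptor Lrp5 was at 0.56 and 21.86 TPM on 71 and 1555 counts, a log2 fold of 4.12, and the ratio of Lrp5 to Lrp6 was 0.0555 in library 1 and 2.06 in library 2. Lrp5 has 58.4% GC and Lrp6 46.1%, and after the GC curve their log2 folds were 0.85 and -0.16. Among Frizzled receptors, the targets of Rnf43 and Znrf3, Fzd7 (7.98 and 8.37 TPM) and Fzd4 (6.48 and 6.73 TPM) stood highest in both libraries.

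In signal transduction, Ctnnb1, which codes for β-catenin, was at 52.75 and 85.25 TPM. Csnk1a1, a kinase that marks β-catenin for degradation, was at 58.43 and 42.55 TPM. Apc, a further scaffold of the degradation complex, was at 4.11 and 3.71 TPM. The kinases Gsk3a (2.53 and 24.92 TPM) and Gsk3b (6.48 and 6.17 TPM) stood in opposite order in the libraries. Gsk3a has 59.8% GC and Gsk3b 46.1%. Their log2 folds were 2.40 and -1.17 under TMM, and -1.36 and -0.50 after the GC curve. Of the nuclear factors, Tcf7l2 led library 1 at 5.13 TPM, with 4.69 TPM in library 2, while Lef1 was at 0.04 and 0.07 TPM. The co-activator Bcl9l had 0 counts in library 1 and 765 in library 2, at least 204-fold higher against a floor of 3 counts. It has 61.7% GC, and its log2 fold after the GC curve was 6.16, which depends on the prior count because library 1 had 0.

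By mean TPM, feedback inhibitors outside the 10 genes were led by Notum, a secreted enzyme that strips the lipid from Wnt proteins, at 0.54 and 25.73 TPM on 21 and 619 counts, a log2 fold of 4.53. Nkd1, an inhibitor of Dishevelled, followed at 0.28 and 2.36 TPM, a log2 fold of 2.24. In library 1 alone, of the secreted inhibitors, Frzb (0.55 TPM) was just above Notum, and Dkk3 (0.39 TPM) above Nkd1. After the GC curve Notum, at 1.50, and Nkd1, at 1.12, still passed the threshold on the higher side, and Sfrp1, at -1.09, passed it on the lower side. These were 2 higher and 1 lower of 5 tested inhibitors, beside 8.59% and 8.08% of all genes. Frzb was then at -0.45 and Dkk3 at -0.37. Axin2 and Rnf43 did not pass the threshold on the higher side after the GC curve, as given above.

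**Figure D5:**
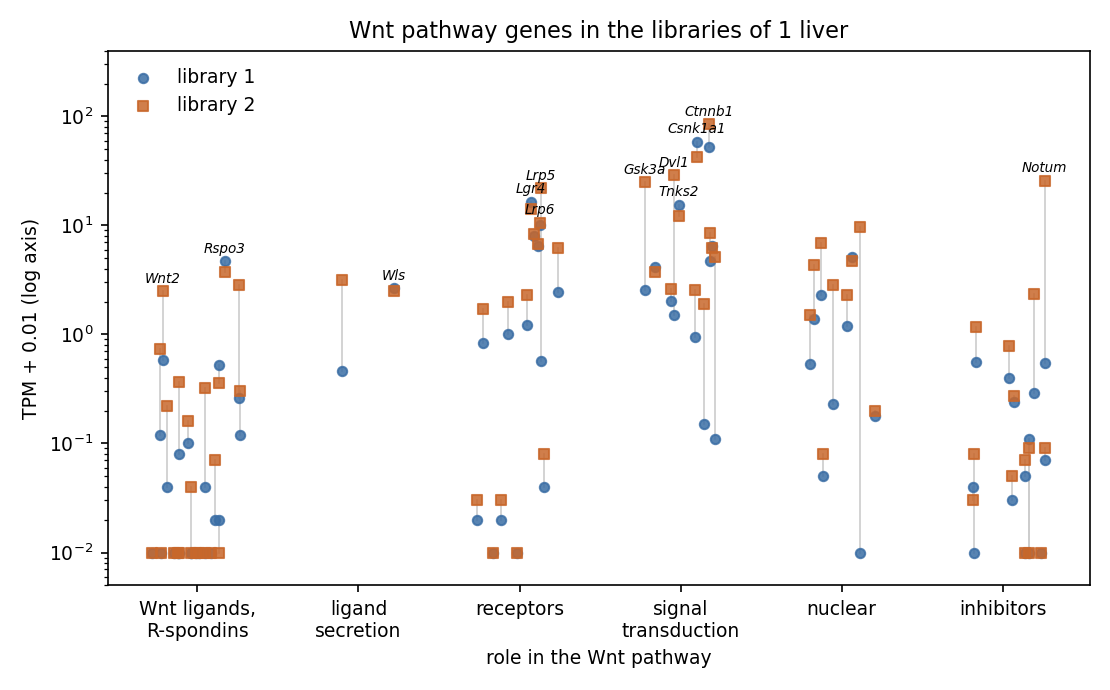
TPM + 0.01 (log axis) of 74 Wnt pathway genes in library 1 (circles) and library 2 (squares), grouped by role, with lines joining the values of a gene and spread within a role to avoid overlap. Most ligands lie near the bottom and Ctnnb1 and Csnk1a1 near the top, and Lrp5 and Notum have some of the longest lines.

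Among 14 other pericentral hepatocyte genes, 13 were at 1 TPM or above in both libraries, 8 were called higher in library 2 and 1 lower, beside 33.0% and 24.0% of all genes. After the GC curve 1 of the 14 was higher and 1 lower, beside 8.59% and 8.08%, with a median log2 fold of 0.13. Cyp2e1 was at 3730.70 and 5139.97 TPM, Rgn at 1616.16 and 1349.00 TPM, and Sp5, a nuclear Wnt target, at 0.05 and 0.64 TPM. Of the 16 tested genes for ammonia and glutamate handling, 10 were called higher and 2 lower under TMM, and 0 higher and 1 lower after the GC curve, against the same shares over all genes. Prodh, a gene of the pericentral list that starts proline breakdown, was at 5.79 and 118.71 TPM with 56.5% GC. Aldh4a1, a gene of the ammonia and glutamate list that finishes this breakdown, was at 19.31 and 207.52 TPM with 56.7% GC. After the GC curve their log2 folds were 1.16 for Prodh and -0.06 for Aldh4a1. The periportal urea cycle gene Cps1 was at 768.38 and 874.52 TPM and Ass1 at 296.26 and 2854.32 TPM.

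Markers of other liver cells were read beside the pericentral genes, and not every list was detected in full in both libraries. All 7 endothelial markers were at 1 TPM or above in both, with sums of 32.06 and 110.13 TPM, and all 5 Kupffer cell markers, with 67.13 and 152.56 TPM. Central vein endothelial markers summed to 7.44 and 10.70 TPM, with Rspo3, Wnt2 and Wnt9b among the 6. Stellate cell markers summed to 45.79 and 133.71 TPM, and bile duct markers to 47.83 and 63.21 TPM, most of it Spp1. In these lists 1 of 6 central vein, 3 of 6 stellate and 2 of 5 bile duct markers reached 1 TPM in both libraries. Of the stellate sum, Reln held 32.10 TPM in library 1, and Ecm1 held 104.46 TPM in library 2, where Reln was at 19.22 TPM. Periportal hepatocyte markers summed to 1110.63 and 5824.32 TPM. These sums were higher in library 2, as was the share of nuclear TPM, and their part in the values of the 10 genes was not tested. Single markers did not all follow the sums. Lrat (6.01 and 4.53 TPM), Reln, Vsig4 (38.17 and 28.58 TPM) and Rspo3 (4.66 and 3.76 TPM) were lower in library 2, and the other markers of these lists were higher.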

How the data were processed

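Per the labels, polyadenylated RNA of 1 liver was extracted with the RNeasy Lipid Tissue Mini Kit and sequenced as 2 technical libraries. The authors deposited, per library, expected counts (estimated, not normalised, with posterior means and SDs), TPM and FPKM (both length-normalised) and, as a percent, each transcript's share of its gene. Per the labels and the deposited file lists, the build was mm10 and the annotation M4. No source used here names the quantification tool, the aligner or the strandedness, so overlapping genes may share reads. Posterior SDs cover read assignment only.

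Symbols, coordinates and sequences came from GENCODE M21 on the same assembly, and promoters from RefSeq (GRCm38.p6), matched by symbol. The 10 genes, the pathway and marker lists and all thresholds were chosen with earlier results of these data known. Of 162 listed symbols, 1 (Pycr3) was not matched. Only the 10 genes and genes of these lists are named, with Gm38392 as the exception.

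Rounded expected counts of genes with 20 or more in the libraries together were scaled, and TMM factors from edgeR 4.0.16 were 0.818 and 1.22. Log2 folds used a prior count of 0.5 and exact binomial intervals at 95%. With 1 library on each side no residual degrees of freedom remain, so no gene was tested. The fold calculation was checked on simulated counts with counting noise only, few changed genes and no GC trend. That check therefore does not cover the GC pattern of these libraries. GC content was the mean over a gene's transcripts weighted by TPM, and the GC curve a loess fit (span 0.3) on nuclear genes. Alternatives were total-count scaling, DESeq2 1.42.0 size factors, TPM ratios (pseudocounts 0.1 and 1), TPM over nuclear protein-coding genes, the GC curve, other count minimums and a detection level of 0.5 TPM. A zero count leaves up to 3 counts open. Promoters were read over 250 bases upstream. Intervals and that floor cover counting error only.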

Additional observations from a re-analysis of the deposited data

How the results depend on the processing

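With 1 animal and 1 library on each side, these values describe 2 libraries and no condition, and low counts limit Rhbg and Slc1a4 in library 1 most. Leaving out a library in turn gave 8 to 10 detected genes and a summed level of 655.94 to 1644.6 TPM. Over nuclear protein-coding genes the mean sum was 1988.22 TPM. The number of the 10 genes called higher in library 2 was 3 under TMM, 5 by total count, 7 and 6 by TPM ratio with pseudocounts of 0.1 and 1, 2 over nuclear protein-coding TPM, 1 after the GC curve and 2 after the plain-mean form of it. The number called lower was 0 under TMM, 1 after the GC curve, and 4 with the GC curve on the plain mean GC of a gene's transcripts, an alternative chosen after seeing the data. Rnf43 reversed to -0.39 and -0.98 under these GC curves and Axin2 to -0.52 and -1.30; the cause was not tested. In the Wnt pathway lists, 16 genes were higher and 8 lower under TMM, 21 and 0 by total count, and 4 and 10 after the GC curve. Size factors from DESeq2, no count minimum and a minimum of 200 kept Rhbg, Rnf43 and Axin2 as the called genes. By posterior mean counts, also chosen after seeing the data, the mean Tbx3 exon 2a share was 25.9% against 24.6% by TPM. No paired analysis was possible because both libraries belong to 1 group.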
